A study of Mus musculus with 30 samples.

Results

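The transcription factors FOXA1, FOXA2, FOXA3, PROX1, GATA4, GATA6 and ZHX2 help set and keep the identity of hepatocytes. The 7 genes that encode them were taken by symbol from the 55450 genes counted in mouse liver, and all 7 had enough counts to be tested in every comparison. Liver mRNA had been sequenced in 3 experiments, with 5 *Cebpa* fl/fl and 5 *Cebpa* knockout male mice in each, 30 libraries in all. Every mouse carried floxed *Cebpa* alleles and was fed HFCFD, a diet rich in fat, cholesterol and fructose. In HFCFD2W the diet lasted 2 weeks and the knockout mice were *Cebpa* ΔHep, in which a constitutive albumin-cre deletes *Cebpa* in hepatocytes. In HFCFD8W+T10D and HFCFD12W+T10W the knockout mice were *Cebpa* ΔHep,ERT2, which carry the inducible albumin-ERT2-cre. The labels give tamoxifen to both genotypes there, for 10 days with the 8-week diet and for the final 10 weeks of 22 weeks of diet. Cre driven by albumin acts in hepatocytes, while whole liver was sequenced, so mRNA from other liver cells is part of every value. No age is given in the labels. The experiments differ in Cre line, diet, tamoxifen and time at once, and these cannot be told apart in a difference between experiments.

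FOXA proteins are forkhead factors that open chromatin at liver enhancers, and FOXA1 and FOXA2 are needed for the liver to form. GATA4 and GATA6 are zinc-finger factors that act beside them in the liver bud, and both are also made outside hepatocytes, GATA4 in sinusoidal endothelium and stellate cells. PROX1 is a homeobox factor of hepatocytes and of lymphatic endothelium that restrains bile acid synthesis with other nuclear factors. ZHX2 is a homeobox and zinc-finger factor known for silencing fetal liver genes after birth. CEBPA, the factor deleted here, works at many of the same hepatocyte enhancers.

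Library totals ran from 7996128 to 10257366 counts. *Cebpa* checked the labels: it fell from 177.2 ± 17.7 CPM (SD, n = 5 mice) to 4.74 ± 0.90 CPM in HFCFD2W, from 143.7 ± 13.4 to 17.2 ± 5.93 CPM in HFCFD8W+T10D and from 114.4 ± 23 to 21.3 ± 1.97 CPM in HFCFD12W+T10W, with no overlap of genotypes. CPM expresses a count relative to its library total, here with a further factor per library from the trimmed mean of M-values (TMM) method. In HFCFD12W+T10W the TMM factors themselves separated the genotypes, at 0.961 to 1.03 in fl/fl and 1.29 to 1.38 in knockout livers. Scaled to plain library totals, the median log2 fold change of all genes there was 0.38 in place of 0.01, and in HFCFD8W+T10D it was 0.19, against 0.03 in HFCFD2W. Members whose call or direction turns on this scaling are given with both values. The summed CPM of 10 hepatocyte markers ran from 40893 to 74164, and no marker of the 7 cell-type lists used was at 0 in every library of a group.

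A member passed at an adjusted p under 0.05 in edgeR's quasi-likelihood test over all genes tested. By this test 3 of 7 members differed between genotypes in HFCFD2W, where 16.7% of 11068 genes did. In HFCFD8W+T10D 1 of 7 did, against 17.1% of 11990 genes, and in HFCFD12W+T10W 4 of 7 did, against 51.1% of 12463 genes. *Prox1* was lower in knockout livers in all 3 experiments, and *Gata4* was lower and *Gata6* higher in HFCFD2W. In HFCFD12W+T10W *Foxa1*, *Foxa2* and *Zhx2* were lower as well. On plain library totals the calls of HFCFD2W held, but 0 members passed in HFCFD8W+T10D. Only *Prox1* then passed in HFCFD12W+T10W, where *Zhx2* turned to 0.086. On that scale 698 genes were lower and 952 higher of 11068 in HFCFD2W. In HFCFD8W+T10D 382 were lower and 2023 higher of 11990, and in HFCFD12W+T10W 962 were lower and 7049 higher of 12463. A fold change over 2 as well as the adjusted p was reached by *Prox1* in HFCFD2W and by no other member in any experiment, against 3.07%, 6.1% and 17.7% of all genes. That *Prox1* value lay at the cutoff, with a log2 fold change of -1.003. It was -0.97 without the TMM factor and -1.23 to -0.87 with single mice left out. Taken by direction, 8.6%, 10.3% and 27.4% of all genes were higher and 8.09%, 6.85% and 23.8% lower in the knockout livers of HFCFD2W, HFCFD8W+T10D and HFCFD12W+T10W. Genotypes did not overlap for *Gata4* and *Gata6* in HFCFD2W, for no member in HFCFD8W+T10D and for *Foxa1* and *Prox1* in HFCFD12W+T10W, against 12.5%, 11.6% and 37.8% of all genes (6.42%, 6.36% and 20.9% with knockout higher, and 6.13%, 5.28% and 16.8% with knockout lower). In HFCFD12W+T10W the hepatocyte markers also fell for 6 of 10 genes, with summed levels of 41469 to 47526 CPM in knockout and 45231 to 58419 CPM in fl/fl livers, and 7 of 10 stellate cell markers rose. Without the TMM factor 5 hepatocyte markers were lower and 2 higher there, and their median changed from -0.54 to -0.16. In HFCFD8W+T10D 4 of 6 macrophage and 4 of 7 tested cholangiocyte markers were higher in knockout livers. Their part in the member levels was not tested. In whole liver, fewer cells that express a factor and less of its mRNA per cell cannot be told apart.

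**Figure D1:**
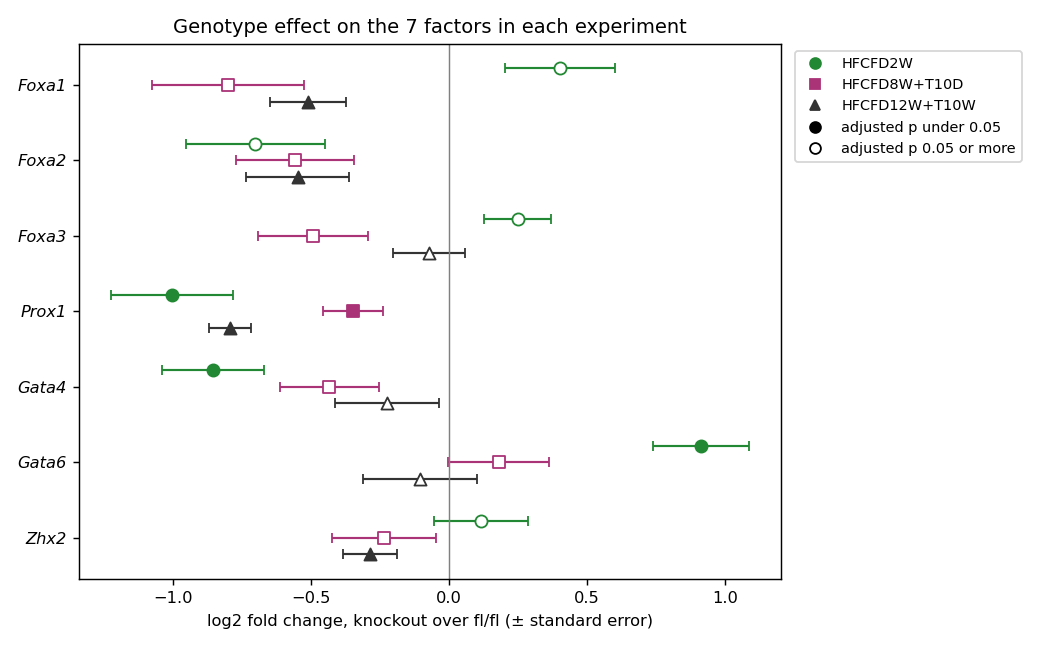
Log2 fold change of each factor, knockout over *Cebpa* fl/fl, on the horizontal axis, with 1 marker per experiment and its standard error; filled markers passed an adjusted p under 0.05. *Prox1* lies left of 0 with a filled marker in all 3 experiments, at -1.0, -0.35 and -0.79, and *Gata6* lies right of 0 in HFCFD2W at 0.91. Without the TMM factor the HFCFD12W+T10W values of *Foxa3*, *Gata4*, *Gata6* and *Zhx2* change to 0.31, 0.14, 0.27 and 0.086.

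**Figure D2:**
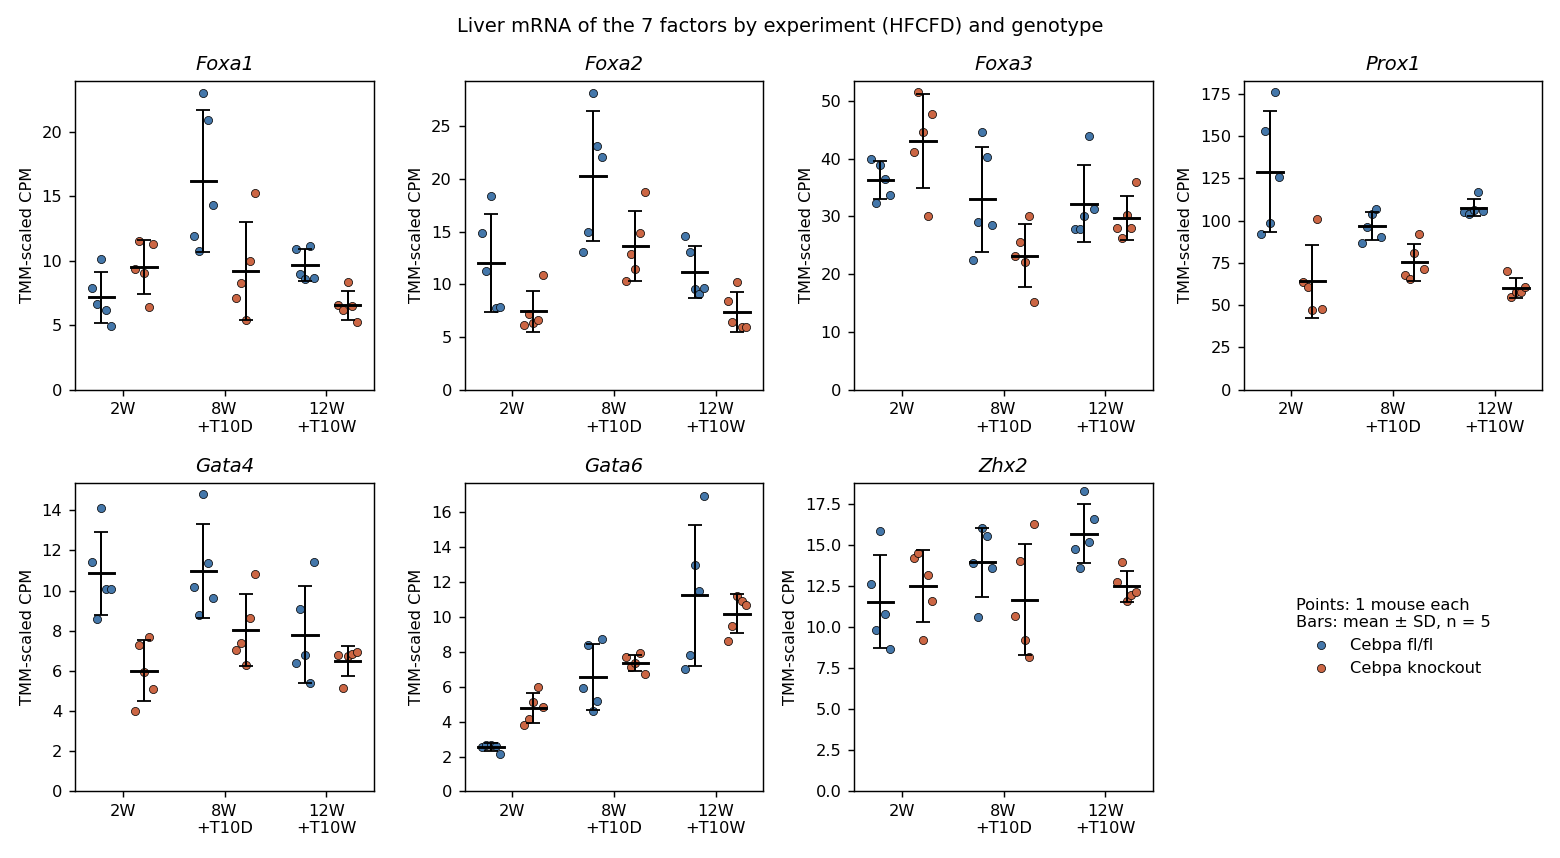
TMM-scaled CPM of each factor (vertical axis, linear, from 0) in every mouse, by experiment on the horizontal axis, with *Cebpa* fl/fl in blue and knockout in orange and black bars for the mean ± SD of 5 mice. The *Prox1* points of the genotypes separate in HFCFD12W+T10W, from 54.9 to 70.3 CPM in knockout and from 104 to 117 CPM in fl/fl livers, and *Gata6* is lowest in the HFCFD2W fl/fl livers.

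Levels of different genes were compared in TPM, which corrects for transcript length. *Foxa3* had the highest mean TPM of the 7 members in each of the 6 groups, from 16 ± 3.87 TPM (SD, n = 5) in HFCFD8W+T10D knockout livers to 26 ± 3.70 TPM in HFCFD12W+T10W knockout livers. TPM holds no TMM factor, and the order of groups changes with the scaling. In TMM-scaled CPM the *Foxa3* mean was highest in HFCFD2W knockout livers (43.1 CPM), against 29.7 CPM in HFCFD12W+T10W knockout livers. *Prox1*, whose transcript is long, led in CPM and was next in TPM, with group means of 8.54 to 17 TPM. *Foxa2* had means of 4.13 to 13 TPM and *Foxa1* of 2.36 to 6.15 TPM. Of the summed TPM of the 3 Foxa genes, *Foxa3* held a mean of 51.3% to 76.2% in the 6 groups, and *Foxa2* held 13.6% to 33.2%. *Foxa3* was therefore the most abundant Foxa mRNA on average in every group. *Gata6* had the lowest mean of all members in HFCFD2W fl/fl livers, at 0.77 ± 0.10 TPM, where *Gata4* was at 4.5 ± 1.35 TPM.

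*Prox1* (chr1:190118035-190170714, minus strand, GRCm38) was the member that passed in each experiment, in HFCFD8W+T10D narrowly. In HFCFD2W the fl/fl livers had 91.9, 98.5, 126, 153 and 176 CPM and the knockout livers 47.4, 47.8, 60.6, 63.5 and 101 CPM. The genotypes overlapped through 1 knockout liver, replicate 5, and the other 4 lay below every fl/fl liver. *Prox1* differed between genotypes by -1.0 on the log2 scale (standard error, SE, 0.22; adjusted p = 0.0086), and the call held without each mouse in turn.
In HFCFD12W+T10W the fl/fl livers had 104, 105, 106, 106 and 117 CPM and the knockout livers 54.9, 57.5, 58.0, 60.6 and 70.3 CPM. All knockout livers lay below all fl/fl livers. *Prox1* differed by -0.79 on the log2 scale (SE 0.08, adjusted p = 3.87e-06), and -0.42 with an adjusted p of 0.000244 without the TMM factor. It was the only member to pass there under both scalings.
In HFCFD8W+T10D the fl/fl livers had 86.8, 90.6, 96.5, 104 and 107 CPM and the knockout livers 65.3, 68.0, 71.1, 80.8 and 92.0 CPM. The difference was smaller, with a log2 fold change of -0.35 (SE 0.11, adjusted p = 0.0432). Without the TMM factor it was -0.18 with an adjusted p of 0.233. The call was also lost without any 1 of 8 mice, fl/fl replicates 2 to 5 or knockout replicates 1, 2, 3 or 5, with an adjusted p of up to 0.106 (without fl/fl replicate 4). Upper quartile scaling (adjusted p = 0.0671), no low-count filter (0.0587) and the joint fit of all libraries (0.0974) lost it too, while DESeq2 (0.0204) and limma (0.0384) kept it. The genotype effect was weaker than in HFCFD2W by 0.65 on the log2 scale (adjusted p = 0.0647), a difference that did not pass with TMM and passed without it (0.79, adjusted p = 0.0198).
Antisense genes overlap *Prox1*, of which *Prox1os* had 9 to 45 counts in a library against 351 to 1275 for *Prox1*. Of the 4 lymphatic endothelial markers, 2 could be tested in HFCFD12W+T10W and both were higher in knockout livers, where their summed level was 47.1 to 79.2 CPM against 37.7 to 48.1 CPM in fl/fl livers. Their part in the *Prox1* level was not tested.

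The sequence before a RefSeq transcription start of *Prox1* is shown with those of *Foxa1* and *Foxa2*. These members were lower in the HFCFD12W+T10W knockout livers, *Foxa1* and *Foxa2* with the TMM factor only. They are RefSeq promoters (GRCm38.p6), 5′ to 3′ on the minus strand, without bases of any exon that GENCODE annotates for the gene. The most upstream RefSeq start of each was used. The windows are chr1:190170828-190171077 for *Prox1*, chr12:57546122-57546361 for *Foxa1* and chr2:148046970-148047219 for *Foxa2*. The *Foxa1* window lies inside the gene as GENCODE annotates it, downstream of the GENCODE start at chr12:57546916. The other windows lie upstream of the GENCODE gene. Capitals mark a forkhead motif.
Prox1: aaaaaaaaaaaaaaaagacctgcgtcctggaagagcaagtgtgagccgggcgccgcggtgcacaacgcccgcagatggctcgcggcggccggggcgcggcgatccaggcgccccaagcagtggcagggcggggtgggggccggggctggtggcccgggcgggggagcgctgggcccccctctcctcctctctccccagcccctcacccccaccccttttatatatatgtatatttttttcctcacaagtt
Foxa1: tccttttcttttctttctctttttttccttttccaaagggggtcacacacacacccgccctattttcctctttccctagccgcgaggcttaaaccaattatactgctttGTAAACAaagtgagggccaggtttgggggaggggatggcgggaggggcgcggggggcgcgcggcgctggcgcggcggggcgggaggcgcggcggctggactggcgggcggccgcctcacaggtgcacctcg
Foxa2: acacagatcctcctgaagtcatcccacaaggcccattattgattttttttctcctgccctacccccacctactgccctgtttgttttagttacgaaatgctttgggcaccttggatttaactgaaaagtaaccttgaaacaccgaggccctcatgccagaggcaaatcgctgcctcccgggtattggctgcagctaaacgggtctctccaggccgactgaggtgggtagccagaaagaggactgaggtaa
The forkhead motif TGTTTAC, searched on both strands, occurred once in the *Foxa1* window and in neither of the others. It lay 141 bases before that RefSeq start, inside the GENCODE gene. Among 32851 promoter windows of 250 bases, 3.17% held this motif. The C/EBP motif TTGCNNAA, present in 9.56% of all windows, and the GATA motif AGATAA, present in 9.99%, were in none of the 3 windows. Of the further starts that RefSeq gives *Prox1* and *Foxa2*, 1 *Foxa2* window (chr2:148045465-148045714) held AGATAA, 183 bases before its start. The windows of these further starts also lie inside the GENCODE genes. A match is no binding site by itself, and a missing match says only that these letters are not in this window. The table held promoters for *Prox1*, *Foxa1*, *Foxa2* and *Foxa3*, 4 of the 7 members.

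*Foxa1* (chr12:57540628-57546916, minus strand) and *Foxa2* (chr2:148042877-148046969, minus strand) encode the forkhead factors that act earliest in liver development. Across the 30 libraries their log2 CPM had a Pearson r of 0.74, and 0.77 after the group means were removed. These libraries share groups and scaling, so the r is a description.
In HFCFD12W+T10W the fl/fl livers had 8.62, 8.68, 8.95, 10.9 and 11.1 CPM of *Foxa1* and the knockout livers 5.26, 6.19, 6.48, 6.54 and 8.36 CPM. All knockout livers lay below all fl/fl livers. For *Foxa1* the genotype difference was -0.51 on the log2 scale (SE 0.14, adjusted p = 0.00801), and -0.14 with an adjusted p of 0.357 without the TMM factor.
In the same livers *Foxa2* had 9.07, 9.54, 9.69, 13 and 14.6 CPM in fl/fl and 5.91, 5.93, 6.47, 8.46 and 10.2 CPM in knockout mice. Here 1 knockout liver, replicate 3, lay within the fl/fl range. The log2 fold change was -0.55 (SE 0.19, adjusted p = 0.0264), and -0.18 with an adjusted p of 0.405 without the TMM factor. The *Foxa2* call was lost without any 1 of 5 mice, fl/fl replicates 1 or 2 or knockout replicates 2, 4 or 5, with an adjusted p of 0.0515 to 0.065, and with upper quartile scaling (adjusted p = 0.0547). The summed level of 8 cholangiocyte markers, all higher in knockout livers there, was 71.0 to 114 CPM against 9.98 to 13.7 CPM. Cholangiocytes also make FOXA1 and FOXA2, and their part in these levels was not tested.

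In HFCFD2W the direction of *Foxa1* was the other one. The fl/fl livers had 4.97, 6.21, 6.68, 7.87 and 10.1 CPM and the knockout livers 6.39, 9.06, 9.35, 11.3 and 11.6 CPM, a log2 fold change of 0.40 (SE 0.20, adjusted p = 0.19). In HFCFD8W+T10D the fl/fl livers had 10.7, 11.9, 14.4, 20.9 and 23.1 CPM and the knockout livers 5.42, 7.12, 8.31, 9.96 and 15.3 CPM, a log2 fold change of -0.80 (SE 0.28, adjusted p = 0.0636). Neither passed alone, but the difference between them did. The genotype effect on *Foxa1* in HFCFD8W+T10D minus that in HFCFD2W was -1.22 on the log2 scale (SE 0.33, adjusted p = 0.016), where 11.2% of 12964 genes passed (4.45% upward and 6.79% downward, and 4.1% with a fold over 2). The call held without each of 20 mice in turn, and without the TMM factor the difference was -1.04 with an adjusted p of 0.0581. For HFCFD12W+T10W minus HFCFD2W the difference was -0.96 (SE 0.34, adjusted p = 0.0319), where 30.7% of genes passed (13.4% upward and 17.3% downward, and 12.3% with a fold over 2). This one was -0.56 with an adjusted p of 0.236 without the TMM factor and -0.83 with an adjusted p of 0.0658 with upper quartile scaling. It was also lost without any 1 of 9 mice, with an adjusted p of up to 0.0676: HFCFD12W+T10W fl/fl replicate 4 and knockout replicates 1, 2, 4 and 5, and HFCFD2W fl/fl replicates 4 and 5 and knockout replicates 3 and 6.
*Foxa2* in HFCFD2W had 7.73, 7.81, 11.3, 14.8 and 18.4 CPM in fl/fl and 6.15, 6.35, 6.64, 7.18 and 10.9 CPM in knockout livers. The log2 fold change was -0.70 (SE 0.25, adjusted p = 0.0724). It passed without fl/fl replicate 4, fl/fl replicate 5 or knockout replicate 6, at an adjusted p of 0.0403, 0.0478 and 0.0421, and with DESeq2 (-0.70, adjusted p = 0.0438). In HFCFD8W+T10D the *Foxa2* value was -0.56 (SE 0.21, adjusted p = 0.0929). Differences of the *Foxa2* genotype effects between experiments were 0.13 (SE 0.34) for HFCFD8W+T10D minus HFCFD2W, -0.02 (SE 0.32) for HFCFD12W+T10W minus HFCFD8W+T10D and 0.11 (SE 0.35) for HFCFD12W+T10W minus HFCFD2W, and none passed (adjusted p = 0.845 to 0.978).
Within a library, the ratio of *Foxa2* to *Foxa1* counts needs no scaling. In HFCFD2W its range was 1.24 to 1.89 in fl/fl livers (median 1.69) and 0.62 to 1.04 in knockout livers (median 0.70). The genotypes did not overlap in HFCFD2W, and they overlapped in the other experiments, with medians of 1.22 and 1.49 in HFCFD8W+T10D and of 1.12 in both genotypes of HFCFD12W+T10W. Neither gene passed alone in HFCFD2W, and how often ratios of other gene pairs separate was not tested.

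*Foxa3* (chr7:19013284-19023538, minus strand), the Foxa gene with the highest mean TPM in every group here, did not pass between genotypes in any experiment. In HFCFD2W the fl/fl livers had 32.4, 33.6, 36.4, 38.9 and 39.9 CPM and the knockout livers 30.2, 41.2, 44.6, 47.8 and 51.6 CPM. Of the knockout livers 4 lay above every fl/fl liver and 1, replicate 5, below every fl/fl liver, and the log2 fold change was 0.25 (SE 0.12, adjusted p = 0.185). Without that replicate the log2 fold change was 0.35 and passed (adjusted p = 0.0221). In HFCFD8W+T10D the fl/fl livers had 22.5, 28.5, 29, 40.2 and 44.6 CPM and the knockout livers 15.2, 22.1, 23.2, 25.5 and 30.1 CPM, a log2 fold change of -0.49 (SE 0.20, adjusted p = 0.112). The difference of these genotype effects was -0.76 (SE 0.24, adjusted p = 0.0398). It was -0.60 with an adjusted p of 0.108 without the TMM factor and -0.70 with an adjusted p of 0.0545 with upper quartile scaling. It was also lost without any 1 of 11 mice, at an adjusted p of up to 0.0871: HFCFD8W+T10D fl/fl replicates 3 and 4 and knockout replicates 1, 3 and 5, and HFCFD2W fl/fl replicates 2, 4 and 5 and knockout replicates 3, 4 and 6. In HFCFD12W+T10W *Foxa3* ran from 27.8 to 43.9 CPM in fl/fl and from 26.2 to 36.0 CPM in knockout livers (log2 fold change -0.07, adjusted p = 0.673, and 0.31, adjusted p = 0.0566, without the TMM factor).

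*Gata4* (chr14:63198922-63271692, minus strand) and *Gata6* (chr18:11052064-11085635, plus strand) moved in opposite directions in HFCFD2W. *Gata4* had 8.61, 10.1, 10.1, 11.4 and 14.1 CPM in fl/fl and 4.02, 5.10, 5.95, 7.29 and 7.67 CPM in knockout livers. All knockout livers lay below all fl/fl livers, with a log2 fold change of -0.86 (SE 0.19, adjusted p = 0.00785). *Gata6* had 2.13, 2.52, 2.62, 2.67 and 2.68 CPM in fl/fl and 3.79, 4.15, 4.83, 5.14 and 6.01 CPM in knockout livers. All knockout livers lay above all fl/fl livers, with a log2 fold change of 0.91 (SE 0.17, adjusted p = 0.00364). Both calls held without each mouse in turn and without the TMM factor. The *Gata6* values rest on 15 to 47 counts in a library.
The ratio of *Gata4* to *Gata6* counts within a library was 3.22 to 5.26 in HFCFD2W fl/fl livers (median 4.53) and 1.06 to 1.76 in knockout livers (median 1.16). This separation follows from that of each gene alone and adds no further evidence. In HFCFD8W+T10D the medians were 1.73 and 1.03, and in HFCFD12W+T10W 0.67 and 0.63, with overlap of genotypes in both. In the HFCFD12W+T10W groups the median library thus held fewer *Gata4* than *Gata6* counts.
In HFCFD8W+T10D *Gata4* ran from 8.80 to 14.8 CPM in fl/fl and from 6.28 to 10.8 CPM in knockout livers (log2 fold change -0.44, SE 0.18, adjusted p = 0.117). Its highest knockout value, 10.8 CPM, came from replicate 5, which was also the highest knockout liver for *Foxa1*, *Foxa2* and *Zhx2* and the lowest for *Foxa3*, *Gata6* and *Cebpa* (11.1 CPM). Without that mouse *Foxa1*, *Foxa2* and *Gata4* passed there, with log2 fold changes of -1.08, -0.72 and -0.58 and adjusted p of 0.0113, 0.0332 and 0.0334. *Foxa1* also passed there with DESeq2 (adjusted p = 0.0289), without fl/fl replicate 2 (adjusted p = 0.0463) and *Foxa2* without fl/fl replicate 1 (adjusted p = 0.0409).
*Gata6* in HFCFD8W+T10D ran from 4.63 to 8.76 CPM in fl/fl and from 6.74 to 7.95 CPM in knockout livers (log2 fold change 0.18, adjusted p = 0.557). In HFCFD12W+T10W it had 7.01, 7.82, 11.5, 13 and 17 CPM in fl/fl and 8.63, 9.51, 10.7, 10.9 and 11.2 CPM in knockout livers, with the knockout livers inside the fl/fl range. The log2 fold change was -0.11 (SE 0.21, adjusted p = 0.703), and 0.27 with an adjusted p of 0.276 without the TMM factor. The genotype effect on *Gata6* in HFCFD12W+T10W minus that in HFCFD2W was -1.06 (SE 0.29, adjusted p = 0.00673), a call that held without each of 20 mice in turn. Without the TMM factor it was -0.66 with an adjusted p of 0.0732. For *Gata4* that difference was 0.59 (adjusted p = 0.109), and 0.98 with an adjusted p of 0.0168 without the TMM factor. *Gata4* in HFCFD12W+T10W ran from 5.40 to 11.4 CPM in fl/fl and from 5.17 to 6.96 CPM in knockout livers (log2 fold change -0.23, adjusted p = 0.344, and 0.14, adjusted p = 0.563, without the TMM factor).
In HFCFD2W, where the GATA genes passed, none of 10 sinusoidal endothelial markers and none of 9 tested stellate cell markers did, while 2 of 6 macrophage markers were higher in knockout livers (4 at an unadjusted p under 0.05, list median 0.38). Their summed levels were 205 to 275 CPM against 215 to 334 CPM for the endothelium and 203 to 332 CPM against 177 to 349 CPM for stellate cells, fl/fl against knockout. At an unadjusted p under 0.05 there were 4 endothelial and 1 stellate cell markers. The part of these cells in the GATA levels was not tested.

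**Figure D3:**
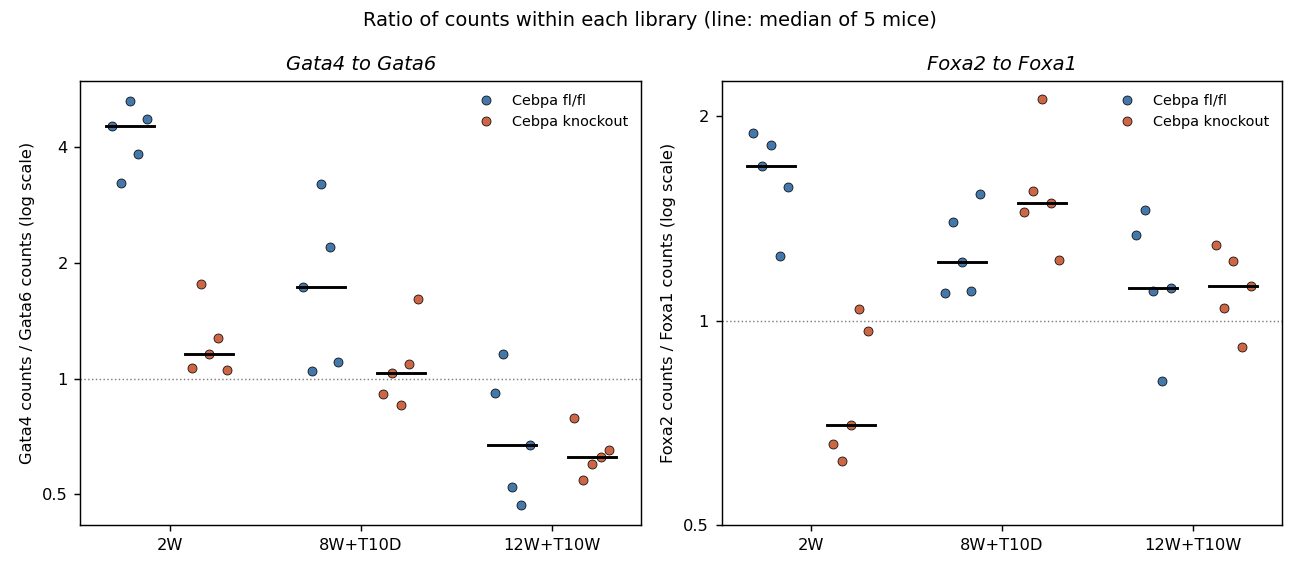
Ratio of *Gata4* to *Gata6* counts (left) and of *Foxa2* to *Foxa1* counts (right) in each library, on log axes, with blue points for *Cebpa* fl/fl, orange points for knockout and a line at the median of 5 mice. In HFCFD2W the genotypes do not overlap in either ratio, with medians of 4.53 and 1.16 on the left and of 1.69 and 0.70 on the right. The left ratio had to separate there, because each gene separated alone, in opposite directions. How often ratios of other gene pairs separate was not tested.

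*Zhx2* (chr15:57694665-57839832, plus strand) had small genotype differences. In HFCFD12W+T10W the fl/fl livers had 13.6, 14.7, 15.2, 16.6 and 18.3 CPM and the knockout livers 11.6, 11.9, 12.1, 12.7 and 13.9 CPM, with 1 liver of each genotype in the range of the other. The genotype difference was -0.29 on the log2 scale (SE 0.10, adjusted p = 0.0256), but 0.086 with an adjusted p of 0.462 without the TMM factor, so its direction turns on the scaling. The call was also lost without any 1 of 4 mice, fl/fl replicate 3 or knockout replicates 3, 4 or 5, at an adjusted p of 0.0528 to 0.0615, with upper quartile scaling (adjusted p = 0.104) and in the joint fit of all libraries (adjusted p = 0.0861). In HFCFD2W *Zhx2* ran from 8.66 to 15.9 CPM in fl/fl and from 9.19 to 14.5 CPM in knockout livers (log2 fold change 0.12, adjusted p = 0.692). In HFCFD8W+T10D it ran from 10.6 to 16 CPM and from 8.18 to 16.2 CPM (log2 fold change -0.24, adjusted p = 0.433). Its group means spanned 1.36-fold from the lowest to the highest, the narrowest span of the 7 members, against 4.46-fold for *Gata6*.

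Between HFCFD8W+T10D and HFCFD12W+T10W, the experiments that share the inducible line, no member passed for a difference in genotype effect (0 of 7 passed in edgeR, against 10.5% of genes, with 4.97% upward, 5.49% downward and 4.47% with a fold over 2). Only *Prox1* had an unadjusted p under 0.05 there (difference -0.47, adjusted p = 0.194), and 0 members passed with DESeq2 or limma.

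The fl/fl livers themselves differed between experiments. From HFCFD2W to HFCFD8W+T10D 4 of 7 members passed, against 43.6% of 12964 genes (22.2% higher, 21.5% lower and 13.7% with a fold over 2). *Gata6* was higher by 1.37 on the log2 scale (SE 0.22, adjusted p = 1.46e-05), *Foxa1* by 1.17 (SE 0.24, adjusted p = 0.000218) and *Foxa2* by 0.75 (SE 0.23, adjusted p = 0.0102). *Prox1* was lower, with a difference of -0.41 (adjusted p = 0.0391), a call lost without the TMM factor (-0.20, adjusted p = 0.301). The *Prox1* call was also lost without any 1 of 7 mice, HFCFD8W+T10D fl/fl replicates 1, 2, 3 or 5 or HFCFD2W fl/fl replicates 2, 4 or 5, at an adjusted p of up to 0.175, with upper quartile scaling (0.0882), with no low-count filter (0.0605) and with limma (0.103).
Cell-type markers moved with this difference: 6 of 6 macrophage, 6 of 10 sinusoidal endothelial and 5 of 10 stellate cell markers were higher in the HFCFD8W+T10D fl/fl livers, and 5 of 10 hepatocyte markers were lower (3 lower and 2 higher without the TMM factor). Their part in the member levels was not tested.
From HFCFD8W+T10D to HFCFD12W+T10W 3 of 7 passed, against 11.4% of genes (6.31% higher, 5.12% lower and 3.06% with a fold over 2). *Gata6* was higher again, by 0.78 (SE 0.19, adjusted p = 0.00593). *Foxa1* and *Foxa2* were lower, with differences of -0.75 (adjusted p = 0.0285) and -0.86 (adjusted p = 0.0138). The highest *Foxa1* and *Foxa2* levels of the 6 groups were thus in HFCFD8W+T10D fl/fl livers, at 16.2 ± 5.49 and 20.3 ± 6.18 CPM (SD, n = 5). The *Foxa1* difference was lost without the TMM factor (-0.73, adjusted p = 0.0638) and without any 1 of HFCFD8W+T10D fl/fl replicates 3 or 4 or HFCFD12W+T10W fl/fl replicates 2, 3 or 5 (adjusted p up to 0.107). The *Foxa2* difference was lost without HFCFD8W+T10D fl/fl replicate 3 (-0.72, adjusted p = 0.058).
In the order of group means, neighbouring groups overlapped for every member except *Gata6*. For *Gata6* the HFCFD2W fl/fl livers (2.53 ± 0.23 CPM) lay below the HFCFD2W knockout livers (4.78 ± 0.87 CPM), and the HFCFD8W+T10D knockout livers (7.38 ± 0.47 CPM) lay below the HFCFD12W+T10W knockout livers (10.2 ± 1.09 CPM).

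The genes these factors are known to control were read from short lists. Of 8 classical FOXA targets, 3 were higher and 1 lower in HFCFD2W knockout livers, none higher and 2 lower in HFCFD8W+T10D, and none higher and 5 lower in HFCFD12W+T10W. The shares of all genes were 8.6%, 10.3% and 27.4% higher and 8.09%, 6.85% and 23.8% lower. In HFCFD2W the higher ones were *Igfbp1* (log2 fold change 3.39), *Tat* (1.52) and *Pck1* (1.35), which encode an insulin-like growth factor binding protein, tyrosine aminotransferase and a gluconeogenic enzyme. In HFCFD12W+T10W the knockout means of *Tat* and *Pck1* were the lower ones, at 1535 and 2484 CPM against 3001 and 3740 CPM in fl/fl livers. The *Igfbp1* mean there was 247 CPM against 183 CPM. *Tdo2*, which encodes tryptophan dioxygenase, was lower in all 3 experiments, at -0.57, -1.47 and -1.50. The list medians were 0.23, -0.08 and -0.43, beside 0.01 for all genes in each experiment. Without the TMM factor 3 targets were lower and 2 higher in HFCFD12W+T10W, against 962 lower and 7049 higher of 12463 genes. In HFCFD8W+T10D 2 were then lower and 1 higher, against 382 lower and 2023 higher of 11990 genes.
Of 4 genes that ZHX2 holds low, *H19* and *Lpl* were higher in knockout livers of all 3 experiments. *Lpl*, lipoprotein lipase, had log2 fold changes of 1.87, 2.18 and 2.33. *H19*, a fetal long noncoding RNA, had 0 to 3 counts in HFCFD12W+T10W fl/fl livers and 73 to 260 counts in knockout livers. *Afp* and *Gpc3* did not pass in any of them, except *Gpc3* in HFCFD12W+T10W without the TMM factor (1.72, adjusted p = 0.015, against 1.36, adjusted p = 0.0582, with it). *Zhx2* itself did not pass in HFCFD2W (0.12, adjusted p = 0.692) or HFCFD8W+T10D (-0.24, adjusted p = 0.433). Its direction in HFCFD12W+T10W turned on the scaling. The part of *Zhx2* in the levels of these genes was not tested.
*Cyp7a1*, the rate-limiting enzyme of bile acid synthesis, which PROX1 is known to repress, was lower in HFCFD2W (-1.18, adjusted p = 0.00172) and HFCFD8W+T10D knockout livers (-2.03, adjusted p = 0.000142). In HFCFD12W+T10W it was at -0.64 (adjusted p = 0.103). *Prox1* was lower in the knockout livers too, though in HFCFD8W+T10D its call was lost without the TMM factor. Between fl/fl livers *Cyp7a1* itself differed by -1.89 for HFCFD8W+T10D minus HFCFD2W. The part of *Prox1* in the *Cyp7a1* level was not tested.

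Among 18 other transcription factors of hepatocytes, 2 were higher and 2 lower in HFCFD2W, none higher and 8 lower in HFCFD8W+T10D, and none higher and 13 lower in HFCFD12W+T10W (8 without the TMM factor, and 3 in HFCFD8W+T10D). Of all genes, 8.09%, 6.85% and 23.8% were lower. *Hnf4a*, a nuclear receptor central to hepatocyte identity, was at 0.14 (adjusted p = 0.238), -0.56 (adjusted p = 0.0104) and -0.96 (adjusted p = 2.21e-06). *Nr1i3*, the xenobiotic receptor CAR, was at -0.23 (adjusted p = 0.241), -1.37 (adjusted p = 0.000121) and -1.49 (adjusted p = 9.19e-07). *Nr1h4*, the bile acid receptor FXR, was lower in all 3 experiments, at -0.64, -0.44 and -0.79, though not in HFCFD8W+T10D without the TMM factor (adjusted p = 0.226). *Cebpb*, a paralog of *Cebpa*, was higher in HFCFD2W (1.11, adjusted p = 0.000394), and *Tbx3* was lower there (-1.11, adjusted p = 0.0146). *Nr1h4* was the one factor of the 18 that passed as lower in every experiment.
Among relatives and cofactors, *Zhx1* and *Zhx3*, the paralogs of *Zhx2*, were lower in HFCFD8W+T10D (-0.35 and -0.51) and HFCFD12W+T10W (-0.33 and -0.95), though without the TMM factor neither passed in HFCFD8W+T10D and *Zhx1* was at 0.04 in HFCFD12W+T10W. *Zfpm1*, which encodes the GATA cofactor FOG1, was lower in HFCFD8W+T10D (-0.61, adjusted p = 0.0114, and 0.116 without the TMM factor), and *Zfpm2* was higher in HFCFD12W+T10W (1.14, adjusted p = 0.0134) at 3 to 30 counts a library. *Gata1*, *Gata2*, *Gata3* and *Gata5* had at most 18 counts in any library and were not tested, so *Gata4* and *Gata6* were the measured GATA factors.

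**Figure D4:**
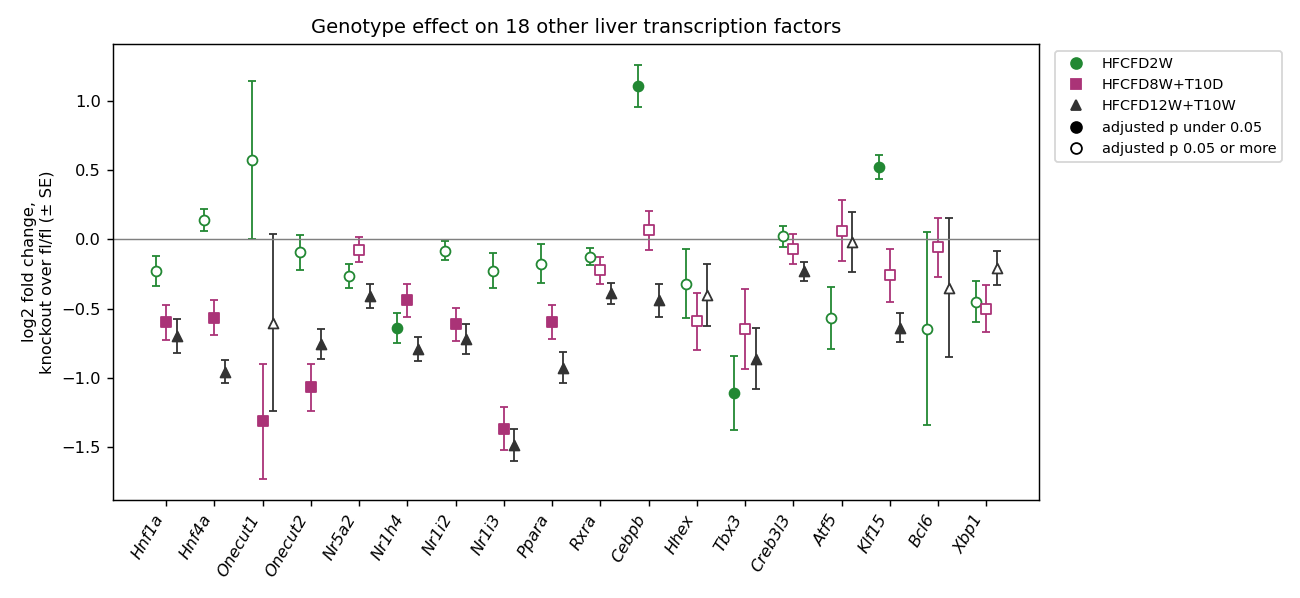
Log2 fold change, knockout over *Cebpa* fl/fl, of 18 other hepatocyte transcription factors (vertical axis, ± standard error), with 1 marker per experiment and filled markers for an adjusted p under 0.05. Of the filled markers, 2 lie above and 2 below 0 in HFCFD2W, 8 below in HFCFD8W+T10D and 13 below in HFCFD12W+T10W. Without the TMM factor these last experiments had 3 and 8 below, where 382 of 11990 and 962 of 12463 genes were lower.

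The genes most like each member were found by Pearson r of log2 CPM over the 30 libraries among 12963 genes, a description in which points share groups and scaling. *Gata6* had the closest match of the 7, *Susd6* with r = 0.94 (0.76 within groups), followed by *Jdp2* (0.91) and *Corin* (0.89). *Zhx2* was closest to *Gabpb2* (0.89, and 0.88 within groups), *Wapl* and *Samd8*, and *Foxa1* to *Zrsr1* (0.86), *Nlrp12* and *Crybg3*. *Prox1* was closest to *Pak1ip1* (0.84), *Tiam2* and *Hsd11b1*, where r within groups was lower, at 0.46, 0.34 and 0.12. *Foxa2* and *Gata4* had *Arhgap29* in common among their 3 closest genes (0.78 and 0.72), and the closest to *Foxa3* was *Gm15638* (0.78).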

How the data were processed

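Liver poly(A) RNA had been made into stranded libraries (1 per mouse). According to the submitters' processing notes the tools included Trimmomatic 0.36, STAR 2.5.1, Picard 1.84, RSEM 1.2.22 and DESeq2, with build mm10. The authors deposited expected counts per gene from RSEM without normalization, TPM for each library, and a signal table of counts scaled by TMM. A table of RPKM was not used. All 55450 gene identifiers match GENCODE M21 (GRCm38). Whether counting used strand is not given in the sources used here.

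These expected counts, rounded, were analysed in edgeR 4.0.16 (R 4.3.3). Genes with low counts were dropped with filterByExpr and TMM factors were applied. Each experiment had its own quasi-likelihood comparison of genotypes, and p-values were adjusted by Benjamini-Hochberg across every gene tested. Differences between experiments came from 1 joint fit of 30 libraries (12964 genes), whose TMM scaling gave the printed CPM. Log2 CPM used a prior count of 2. Alternatives were upper quartile scaling, no low-count filter, DESeq2 1.42.0, limma 3.58.1 on log2 of the authors' TMM signal values with a pseudocount of 1, the replicate number as a block, a joint fit, each mouse left out, a fold change over 2 and, added after seeing the data, library totals with no TMM factor. The steps were tested on simulated data. The members and gene lists were chosen with earlier results of these data known. Named genes are the members, the listed genes, *Cebpa*, genes that overlap a member and the 3 genes closest to each member by Pearson r. Of 60 pairs of libraries in a group, none agreed within sampling noise.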

Additional observations from a re-analysis of the deposited data

Results flagged for a closer look

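In 5 of 42 groups of 5 mice, the highest or lowest mouse stood apart by Dixon's criterion, which chance meets in about 1 of 20 groups. They were *Foxa2* in HFCFD2W knockout replicate 6 (10.9 CPM), *Foxa3* in HFCFD12W+T10W fl/fl replicate 4 (43.9 CPM), *Prox1* in the same mouse (116.7 CPM), *Gata4* in HFCFD12W+T10W knockout replicate 2 (5.17 CPM) and *Gata6* in HFCFD2W fl/fl replicate 5 (2.13 CPM). Without HFCFD12W+T10W fl/fl replicate 4 the genotype effect on *Foxa3* changed from -0.07 to 0.049.

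The genotype effect differed between experiments by the interaction test for 3 members. For *Foxa1* the log2 difference was -1.22 for HFCFD8W+T10D minus HFCFD2W and -0.96 for HFCFD12W+T10W minus HFCFD2W. For *Foxa3* it was -0.76 for HFCFD8W+T10D minus HFCFD2W, and for *Gata6* it was -1.06 for HFCFD12W+T10W minus HFCFD2W. All of these lost their call on library totals with no TMM factor.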

How the results depend on the processing

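Of 1127 refits of 56 member values, 987 kept direction and side of the threshold, 75 lost and 27 gained a call, and 38 changed sign. These refits include the replicate block for the fl/fl differences, which does not estimate a difference between group means. For the other changes the cause was not tested.

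Counts of members that passed moved as follows, in the order HFCFD2W, HFCFD8W+T10D and HFCFD12W+T10W. The main counts were 3, 1 and 4. Requiring a fold change over 2 gave 1, 0 and 0. Upper quartile scaling gave 0 in HFCFD8W+T10D and 2 in HFCFD12W+T10W, library totals with no TMM factor gave 0 and 1, and DESeq2 and the joint fit each gave 2 in HFCFD8W+T10D (in the joint fit *Foxa1* at -0.81 and *Foxa3* at -0.51). DESeq2 gave 4 in HFCFD2W, and the joint fit 3 in HFCFD12W+T10W. With each mouse left out the counts were 3 to 4, 0 to 3 and 2 to 4. For differences of genotype effects, the counts were 2 for HFCFD8W+T10D minus HFCFD2W and 2 for HFCFD12W+T10W minus HFCFD2W. DESeq2 gave 3 for the first. Both were 1 with a fold change over 2 and 1 to 3 with a mouse left out. Both were also 1 with library totals, through a member that had not passed with TMM. It was *Prox1* (adjusted p = 0.0198) for the first and *Gata4* (adjusted p = 0.0168) for the second. Upper quartile scaling gave 1 for the second. For the first it gave 2, with *Prox1* (adjusted p = 0.0478) in place of *Foxa3*. Between fl/fl livers, the 4 members of HFCFD8W+T10D minus HFCFD2W became 2 with a fold change over 2 and 3 to 5 with a mouse left out. The 3 of HFCFD12W+T10W minus HFCFD8W+T10D became 0 and 1 to 3.

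No sign was seen that replicate numbers pair mice across genotypes. Correlations of deviations between same-numbered mice lay at -0.25 to 0.10 in HFCFD2W, -0.11 to 0.15 in HFCFD8W+T10D and -0.09 to 0.17 in HFCFD12W+T10W. With 4 or 5 such pairs in an experiment, these values cannot exclude pairing. The replicate block gave 5 members in HFCFD2W, where *Foxa1* (0.41, adjusted p = 0.05) and *Foxa2* (-0.67, adjusted p = 0.0421) passed. It gave 1 in HFCFD8W+T10D and 3 in HFCFD12W+T10W, where *Zhx2* was lost (adjusted p = 0.066). In HFCFD2W fl/fl replicate 1 and knockout replicate 6 have no partner of the same number, and the block fit treated them as a pair. Between fl/fl livers the block gave 2 and 1 members, and it turned *Foxa3* to 0.48 and *Zhx2* to -0.059 for HFCFD12W+T10W minus HFCFD8W+T10D.

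On library totals with no TMM factor, genotype effects in HFCFD12W+T10W changed sign for *Foxa3* (0.31), *Gata4* (0.14), *Gata6* (0.27) and *Zhx2* (0.086). So did the differences of genotype effects for *Foxa2* (0.20) and *Zhx2* (0.12) in HFCFD12W+T10W minus HFCFD8W+T10D and for *Foxa3* (0.038) in HFCFD12W+T10W minus HFCFD2W, and the fl/fl difference of *Foxa3* in HFCFD8W+T10D minus HFCFD2W (0.065). Upper quartile scaling changed the sign of *Foxa3* in HFCFD12W+T10W (0.0098) and of the *Foxa2* difference for HFCFD12W+T10W minus HFCFD8W+T10D (0.061). Leaving out single mice changed signs within these ranges: in HFCFD12W+T10W, *Foxa3* -0.15 to 0.049 and *Gata6* -0.26 to 0.085; for differences of genotype effects, *Foxa2* -0.090 to 0.30 (HFCFD8W+T10D minus HFCFD2W), -0.15 to 0.13 (HFCFD12W+T10W minus HFCFD8W+T10D) and -0.11 to 0.28 (HFCFD12W+T10W minus HFCFD2W), and *Zhx2* -0.18 to 0.071 (HFCFD12W+T10W minus HFCFD8W+T10D); and for fl/fl livers, *Gata4* -0.099 to 0.13 (HFCFD8W+T10D minus HFCFD2W) and *Foxa3* -0.17 to 0.094 (HFCFD12W+T10W minus HFCFD8W+T10D). None of these values passed in the main test except *Zhx2* in HFCFD12W+T10W. Some calls appeared without 1 mouse: the *Prox1* difference for HFCFD8W+T10D minus HFCFD2W without HFCFD2W fl/fl replicate 1 (0.75), fl/fl replicate 3 (0.73) or knockout replicate 5 (0.87); for HFCFD12W+T10W minus HFCFD2W, *Gata4* without HFCFD12W+T10W fl/fl replicate 5 (0.81) and *Zhx2* without HFCFD2W fl/fl replicate 3 (-0.60); and between fl/fl livers, *Zhx2* without the latter mouse (0.42) and *Gata4*, HFCFD12W+T10W minus HFCFD8W+T10D, without HFCFD12W+T10W fl/fl replicate 5 (-0.67). Depth limits *Gata6* in HFCFD2W, at 15 to 47 counts a library, and *Gata4* in HFCFD12W+T10W, at 47 to 113 counts.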
